A study of Homo sapiens with 16 samples.

Results

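The 10 genes described here are *ATF4* and 9 genes that are widely used as readouts of its activity during amino acid stress, namely *ASNS*, *CHAC1*, *DDIT3*, *TRIB3*, *PSAT1*, *PHGDH*, *SESN2*, *SLC7A5* and *MTHFD2*. They were listed by name as targets of ATF4 and as serine synthesis genes, with earlier results of these data known, and all 10 were found among the 57773 genes of the count table. Their RNA was measured by bulk RNA-seq in 16 libraries from 4 human clear cell renal cell carcinoma (ccRCC) lines named A498, CAKI-2, 769-P and 786-O. Cultures, controls included, had been infected with a lentivirus carrying Cas9 and a guide RNA, and mutants were populations of infected cells. Puromycin selection is described for the sgKDM5C and sgCtrl populations, and the drug used for the sgKDM5D populations is not given in the sources used here. Each line had 1 sgCtrl library (control guide) and 2 sgKDM5C libraries (guides 4 and 5, aimed at the same exon of *KDM5C*), and 786-O and CAKI-2 also had 2 sgKDM5D libraries (guides 2 and 4). KDM5C and KDM5D are histone demethylases that remove methyl groups from lysine 4 of histone H3. The 2 libraries of a mutant group were 2 guides, and nothing in the labels says that controls were repeated, so p-values measure the spread between such libraries only.

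ATF4 is a transcription factor of the integrated stress response. Kinases that sense uncharged tRNA, unfolded protein in the endoplasmic reticulum, double-stranded RNA or haem shortage phosphorylate the translation factor eIF2alpha, which lowers general protein synthesis but lets the *ATF4* message be translated more, so that ATF4 protein can change without a change in *ATF4* RNA. Together with C/EBP proteins, ATF4 binds composite response elements and turns on genes for amino acid synthesis and uptake, for serine and folate-linked one-carbon metabolism, and for feedback control or cell death.

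**Figure D1:**
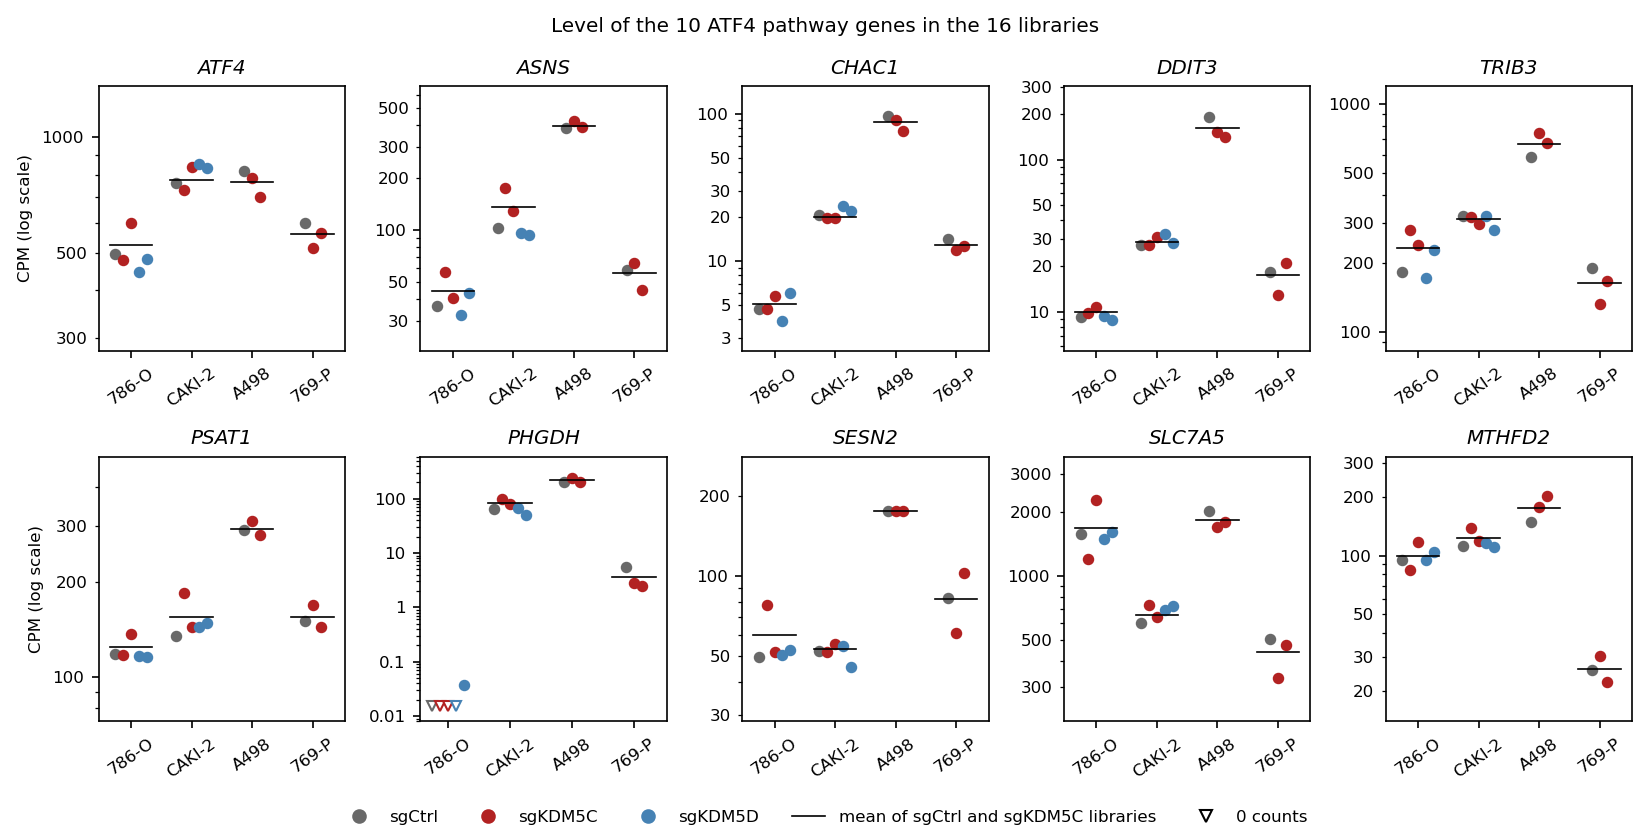
Level of each member in every library, in CPM (counts scaled to a library of 1e6 counts, log scale), by cell line. Points are libraries coloured by guide, lines are means over the sgCtrl and sgKDM5C libraries of a line, and open triangles mark libraries with 0 counts. The 3 A498 libraries lie above all the other libraries for 8 of the 10 genes, against 19.8% of all genes tested. *PHGDH* has at most 1 count in a 786-O library.

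Libraries held 23398449 to 41617439 counts. Within a line, libraries differed from each other by a root mean square of 0.223 to 0.49 on the log2 scale over the 12075 genes that averaged 100 counts or more, and 786-O sgKDM5C 4 had the largest value. *KDM5C* RNA stood at 26.2% to 57.3% of the control of the same line in all 8 sgKDM5C libraries. Markers of the renal epithelial list (6 genes measured) summed to 1690 to 3270 CPM, against at most 0.657 CPM for 3 leukocyte genes, 3.36 CPM for 2 endothelial genes and 9.95 CPM for 3 fibroblast genes. In A498 these 3 lists summed to at most 0.38, 0.488 and 0.425 CPM.

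*ATF4* itself (chr22:39915700-39918688, GRCh37) was abundant in every line. In CPM scaled for library composition, 786-O gave 496 in sgCtrl, 478.5 and 597 with the sgKDM5C guides and 445.5 and 483 with the sgKDM5D guides. CAKI-2 gave 762 in sgCtrl, 729.5 and 838.5 with sgKDM5C and 850.5 and 835 with sgKDM5D. A498 gave 820 in sgCtrl and 782 and 698 with sgKDM5C, and 769-P gave 600 in sgCtrl and 517 and 563 with sgKDM5C. CAKI-2 and A498 thus held the higher level, with line means of 777 ± 56 and 767 ± 62.3 CPM (SD, n = 3), and these did not differ beyond their spread (edgeR quasi-likelihood test on the mean of the sgCtrl and sgKDM5C groups, log2 difference of CAKI-2 minus A498 -0.012 with a sign that changed with the scaling, 95% interval -0.277 to 0.253, adjusted p = 0.941). In 769-P and 786-O the means were 560 ± 41.5 and 524 ± 64.1 CPM (SD, n = 3), which also did not differ beyond their spread (adjusted p = 0.38). Relative to transcript length, *ATF4* was the most abundant member in CAKI-2, A498 and 769-P, at 547, 540 and 394.5 CPM per kilobase (RPKM). In 786-O it stood at 369 RPKM beside *SLC7A5* at 370 RPKM.

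The members that act in feedback and cell death were spread much more widely between the lines than *ATF4*. *DDIT3* (chr12:57910371-57915520) encodes CHOP, a C/EBP family factor that ATF4 induces. It had 9.25 CPM in 786-O sgCtrl, and 9.77 and 10.7 with sgKDM5C and 9.46 and 8.9 with sgKDM5D in that line. A498 had 190 CPM in sgCtrl and 151.5 and 140.4 with sgKDM5C, so that the lowest A498 library lay far above the highest library of any other line (32.6 CPM, in CAKI-2). The mean of *DDIT3* in 769-P was 17.4 ± 4.08 CPM and in CAKI-2 28.7 ± 2.25 CPM (SD, n = 3). Exons of *DDIT3* share 355 bases with *MARS1* on the opposite strand, and use of strand in counting is not given in the sources used here. *MARS1*, which charges tRNA with methionine, was highest in CAKI-2 (392 ± 29 CPM) and stood at 250 ± 18.6 CPM in A498 (SD, n = 3), an order other than that of *DDIT3*. Whether reads of *MARS1* add to the counts of *DDIT3* was not tested.

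*CHAC1* (chr15:41245160-41248710) encodes an enzyme that degrades glutathione. It was the least abundant member per length in CAKI-2. The sgCtrl library had 96.4 CPM in A498 and 20.4 in CAKI-2, but 14.2 in 769-P and 4.74 in 786-O. Together with the mutants of the same line the range was 76.4 to 96.4 CPM for A498, 19.4 to 23.4 for CAKI-2, 11.8 to 14.2 for 769-P and 3.91 to 6.07 for 786-O. None of these 4 ranges overlapped another. *CHAC2*, its paralog, did not follow this order and was lowest in A498 (2.06 ± 0.231 CPM, SD, n = 3).

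*TRIB3* (chr20:343479-378203), a pseudokinase that is induced by ATF4 and restrains it, ranged less. 786-O had 184 CPM in sgCtrl, 279 and 241 with the sgKDM5C guides and 171.5 and 229 with the sgKDM5D guides. In CAKI-2 it lay between 279 and 323 CPM over 5 libraries, in A498 at 586.5 in sgCtrl and 750 and 675 with sgKDM5C, and in 769-P at 191 in sgCtrl and 132 and 166 with sgKDM5C. 786-O and 769-P overlapped for this gene. *SESN2* (chr1:28586029-28609002), a leucine-binding inhibitor of mTORC1, was nearly constant in A498, at 175.6, 175.1 and 176 CPM in its 3 libraries. It spanned 49.6 to 78.1 CPM in 786-O, 45.4 to 55.5 CPM in CAKI-2 and 61 to 103 CPM in 769-P, so 786-O overlapped both 769-P and CAKI-2. Among the paralogs, *SESN1* was also highest in A498, at 17.6 ± 0.495 CPM (SD, n = 3), and at 5.84 to 8.39 CPM on average in the other lines.

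The members for amino acid synthesis and uptake were *ASNS* and *SLC7A5*. *ASNS* (chr7:97480989-97501854) makes asparagine from aspartate and glutamine. It was lowest in 786-O, with 36.4 CPM in sgCtrl, 57.1 and 40.4 with sgKDM5C and 32.3 and 43.3 with sgKDM5D. It reached 384.5 CPM in A498 sgCtrl and 420 and 389 in the A498 sgKDM5C libraries. CAKI-2 lay between, with 103 CPM in sgCtrl, 175 and 128 with sgKDM5C and 96.3 and 93.4 with sgKDM5D. The mean of 769-P, 56.2 ± 10 CPM (SD, n = 3), was not separated from that of 786-O, 44.6 ± 11 CPM (log2 difference of 786-O minus 769-P -0.43, adjusted p = 0.0714 in edgeR). This comparison was called without the count filter (adjusted p = 0.021), and without 786-O sgKDM5C 4 (adjusted p = 0.0166) or without 769-P sgKDM5C 5 (adjusted p = 0.0241).

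*SLC7A5* (chr16:87863629-87903113) encodes LAT1, the light chain of the main importer of leucine and other large neutral amino acids. It was the member with most counts, 9352 to 63282 per library. In 786-O it was measured at 1580 CPM in sgCtrl, 1199 with sgKDM5C 4, 2273 with sgKDM5C 5, and 1493 and 1611 with sgKDM5D. A498 gave 2022 CPM in sgCtrl and 1689 and 1783 with sgKDM5C, inside the range of 786-O. CAKI-2 (601 to 730 CPM) and 769-P (332 to 507.5 CPM) lay below both. It was the 1 target whose mean in A498 was not above that of every other line by the test.

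The remaining members belong to serine synthesis and mitochondrial folate metabolism, and they include the most line-dependent gene. *PHGDH* (chr1:120191034-120286841) catalyses the first step of serine synthesis from 3-phosphoglycerate. In 786-O it had 0 counts in 4 libraries and 1 count in sgKDM5D 4, out of 144643279 counts in the 5 libraries. CAKI-2 had 63.5 CPM in sgCtrl, 101 and 81.4 with sgKDM5C and 69 and 49.9 with sgKDM5D. A498 had 204 CPM in sgCtrl and 246 and 207 with sgKDM5C. 769-P had 5.6 CPM in sgCtrl (136 counts) and 2.81 and 2.47 CPM with sgKDM5C (79 and 60 counts). The 4 lines were thus fully separated. Against a floor of 3 counts over the 3 sgCtrl and sgKDM5C libraries of 786-O, *PHGDH* was at least 6110-fold higher in A498, at least 2280-fold higher in CAKI-2 and at least 101-fold higher in 769-P.

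*PSAT1* (chr9:80912041-80945009), the aminotransferase of the second step, was present in all 4 lines, so that 786-O held *PSAT1* at 118 CPM in sgCtrl with *PHGDH* at 0. Its range over all libraries was 281 to 311 CPM in A498, 144.5 to 170 in 769-P, 135 to 185 in CAKI-2 and 116 to 137 in 786-O. *PSPH*, the phosphatase of the last step and not a member, stood at 39.8 ± 8.54 CPM in 786-O and 141 ± 6.85 CPM in A498 (SD, n = 3). *MTHFD2* (chr2:74413299-74444692), a mitochondrial enzyme of the folate cycle, was lowest in 769-P, at 25.5 CPM in sgCtrl and 30.2 and 22.3 with sgKDM5C. It stood at 84.3 to 117 CPM in 786-O, 111 to 140 in CAKI-2 and 149 to 203 in A498, and the ranges of 786-O and CAKI-2 overlapped. The pseudogene *MTHFD2P1* reached at most 3.62 CPM, in CAKI-2.

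Composite elements for ATF4 with a C/EBP partner were looked for as TGATGNAA, on either strand, in the 300 bases around the annotated starts of the members (15 windows for the 10 genes, RefSeq, GRCh38.p14). A match was found for 2 of 10 members, *ASNS* and *CHAC1*, against 3.62% of all 35116 windows and 4.46% of all 27305 symbols with a window. The matches are descriptions of the letters and not measured binding, and a missing match says only that these letters are not in the window. These 2 genes had folds of 9.37 and 18.1 between A498 and 786-O, while *DDIT3*, at 17.1-fold, and *PHGDH*, at least 6110-fold, had no match. The 250 bases before the start of *ASNS* and *CHAC1* are shown, 5′ to 3′ on the strand of the gene, with the match in capitals. For *CHAC1* the match is on the other strand and reads in reverse complement.
ASNS, chr7:97872409-97872658 (minus strand): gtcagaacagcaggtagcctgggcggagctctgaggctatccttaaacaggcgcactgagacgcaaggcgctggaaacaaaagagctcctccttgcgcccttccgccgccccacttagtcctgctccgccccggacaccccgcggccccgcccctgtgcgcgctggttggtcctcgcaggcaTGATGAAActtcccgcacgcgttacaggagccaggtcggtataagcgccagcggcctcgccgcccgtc
CHAC1, chr15:40953221-40953470 (plus strand): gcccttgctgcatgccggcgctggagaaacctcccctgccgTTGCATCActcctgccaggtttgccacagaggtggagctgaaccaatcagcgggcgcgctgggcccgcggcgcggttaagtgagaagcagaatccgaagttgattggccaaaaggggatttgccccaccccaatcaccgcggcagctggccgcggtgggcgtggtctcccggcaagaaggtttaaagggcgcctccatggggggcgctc
The first base of the match lies 68 bases before the start in *ASNS* and 209 bases before it in *CHAC1*.

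Whether the lines differed in these genes was tested in the same fit, with a line mean taken over its sgCtrl and sgKDM5C groups. All 10 members differed between the 4 lines at an adjusted p under 0.05 (adjusted p = 6.39e-12 for *PHGDH* to 0.000548 for *ATF4*), and so did 90.5% of the 20175 genes tested, so the count is near that of genes in general. The labels give no date or batch of culture or sequencing, and a difference between lines and a difference between the days on which they were handled cannot be told apart.

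Most members were highest in A498. In this line, 8 of 10 members (*ASNS*, *CHAC1*, *DDIT3*, *TRIB3*, *PSAT1*, *PHGDH*, *SESN2* and *MTHFD2*) were called higher than in each of the other 3 lines, against 18.2% of all genes tested, and 0 members were called lower than in all 3, against 15.3%. For the same 8 genes all 3 A498 libraries lay above the other 13 libraries, which held for 19.8% of all genes. The call against CAKI-2 for *MTHFD2* was lost without CAKI-2 sgCtrl (adjusted p = 0.112) or CAKI-2 sgKDM5C 5 (adjusted p = 0.0771), which brought the 8 members to 7, and without 786-O sgKDM5C 5 *SLC7A5* joined them to make 9. As a sum, the 3-gene hypoxia list (*CA9*, *VEGFA* and *NDUFA4L2*) was also highest in A498, at 1340 to 1650 CPM. It summed to 294 to 450 CPM in 786-O, 207 to 248 in CAKI-2 and 48 to 62.4 in 769-P. Most of the sum was *VEGFA*, at 1327 to 1636 CPM in A498. *CA9* and *VEGFA* were called higher in A498 than in each other line, and *NDUFA4L2* was called lower than in CAKI-2. The part of this list in the result was not tested.

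**Figure D2:**
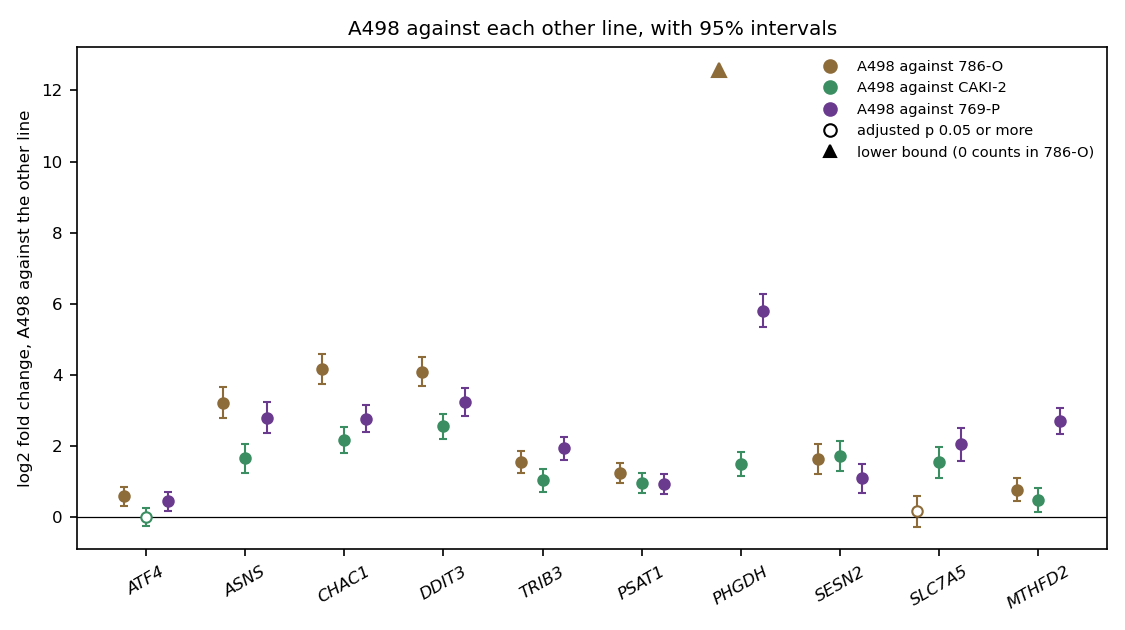
Fitted log2 fold change of A498 against each other line for the 10 members, with 95% intervals; filled points have an adjusted p under 0.05, open points do not, and the triangle is a lower bound because 786-O had 0 counts of *PHGDH*. Intervals lie above 0 for all pairs of member and line but *ATF4* against CAKI-2, whose sign changed with the scaling, and *SLC7A5* against 786-O.

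Against 786-O, 9 of 10 members were higher in A498 (68.7% of all genes were called in this comparison, 37.8% as higher in A498). *CHAC1* was 18.1-fold, *DDIT3* 17.1-fold and *ASNS* 9.37-fold higher (adjusted p = 3.64e-10, 3.79e-10 and 7.31e-09 in edgeR, higher in 3 of 3 libraries each). *SESN2*, *TRIB3* and *PSAT1* were 3.1-fold, 2.96-fold and 2.4-fold higher, while *MTHFD2* and *ATF4* differed by 1.72-fold and 1.51-fold. *SLC7A5* was not called (log2 difference of 786-O minus A498 -0.18, 95% interval -0.615 to 0.257, adjusted p = 0.452), and without 786-O sgKDM5C 5 it was called as higher in A498 (adjusted p = 0.0119). The median log2 difference of 786-O minus A498 was -1.6 over the members and -0.168 over all genes.

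Against CAKI-2, 9 of 10 were higher in A498 (65.8% called, 32.0% as higher in A498). *DDIT3* led with 5.88-fold, followed by *CHAC1* with 4.5-fold, *SESN2* with 3.32-fold, *ASNS* with 3.16-fold, *SLC7A5* with 2.92-fold and *PHGDH* with 2.83-fold. *TRIB3* and *PSAT1* differed by 2.05-fold and 1.97-fold and *MTHFD2* by 1.4-fold (adjusted p = 0.0127). *ATF4* RNA was the exception, as described above, and the median log2 difference of CAKI-2 minus A498 was -1.52 over the members and 0.00766 over all genes. Against 769-P all 10 were higher in A498 (69.9% called, 38.2% as higher in A498). *PHGDH* was 55.8-fold, *DDIT3* 9.45-fold, *ASNS* 6.95-fold, *CHAC1* 6.84-fold and *MTHFD2* 6.5-fold higher, and *ATF4* 1.37-fold (adjusted p = 0.00463). The medians of A498 minus 769-P were 2.38 over the members and 0.165 over all genes.

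The other 3 lines did not share 1 order over the members. Between CAKI-2 and 769-P, 9 of 10 members were called (63.8% of all genes), 8 of them higher in CAKI-2 and *SESN2* lower. *PHGDH* and *MTHFD2* showed the largest of these differences, with log2 values of CAKI-2 minus 769-P of 4.3 and 2.21. *PSAT1* was not called (adjusted p = 0.787), and the call for *SLC7A5* (adjusted p = 0.0427) was lost without CAKI-2 sgKDM5C 4, CAKI-2 sgKDM5C 5 or 769-P sgKDM5C 4 (adjusted p = 0.0907, 0.052 and 0.133). Between 786-O and CAKI-2, 7 members were called in edgeR (63.3% of all genes). *ATF4*, *ASNS*, *CHAC1*, *DDIT3*, *TRIB3* and *PHGDH* were lower in 786-O and *SLC7A5* was higher (log2 difference of 786-O minus CAKI-2 1.37). DESeq2 called 8 members, with *PSAT1* added as lower in 786-O (log2 difference -0.33, adjusted p = 0.0323). The call for *TRIB3* was lost without 786-O sgCtrl (adjusted p = 0.133). Conversely *PSAT1* (adjusted p = 0.0717) was called as lower in 786-O with RLE size factors (adjusted p = 0.0391) and without 786-O sgKDM5C 5, CAKI-2 sgCtrl or CAKI-2 sgKDM5C 5 (adjusted p = 0.0344, 0.0134 and 0.0287), and *MTHFD2* (adjusted p = 0.113) without 786-O sgKDM5C 5 or CAKI-2 sgCtrl (adjusted p = 0.0165 and 0.0429).

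Between 786-O and 769-P, 7 members were called (50% of all genes), in both directions. *CHAC1*, *DDIT3*, *PHGDH* and *SESN2* were higher in 769-P, and *MTHFD2*, *SLC7A5* and *TRIB3* were higher in 786-O, with log2 differences of 786-O minus 769-P of 1.92, 1.87 and 0.37. The calls for *TRIB3* and *SESN2* depended on single libraries. *TRIB3* was lost without 786-O sgKDM5C 4 (adjusted p = 0.0718) or 769-P sgKDM5C 4 (adjusted p = 0.126). *SESN2* was lost without 786-O sgCtrl, 786-O sgKDM5C 5 or 769-P sgKDM5C 5 (adjusted p = 0.214, 0.0719 and 0.11). *PSAT1* lay at the threshold (adjusted p = 0.0501) and was called as lower in 786-O without 786-O sgKDM5C 5, 769-P sgCtrl or 769-P sgKDM5C 5 (adjusted p = 0.0234, 0.0459 and 0.027).

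The rest of the pathway was read from 6 further lists (68 genes tested), beside the 18.2% of all genes called higher and the 15.3% called lower in A498 than in each of the other lines. Of 12 other genes induced by ATF4, 7 were called higher in A498 than in each of the other lines (58.3%, namely *ATF3*, *CEBPB*, *CEBPG*, *NUPR1*, *GDF15*, *VEGFA* and *FGF21*) and 0 lower. *GDF15*, a secreted stress hormone, averaged 2869 ± 348 CPM in A498 and 528 ± 127 in CAKI-2, but 40.9 ± 9.79 in 769-P and 11.3 ± 6.27 in 786-O (SD, n = 3). *NUPR1*, a small stress-induced chromatin protein, averaged 1054 ± 273 CPM in A498 and 72.9 ± 15.4 in CAKI-2, but 1.99 ± 0.483 in 769-P and 1.18 ± 0.252 in 786-O. By line mean both followed the order seen for *ASNS*, *CHAC1*, *DDIT3* and *PHGDH*. For *NUPR1* the range of 786-O over 5 libraries (1.02 to 4.21 CPM) held that of 769-P (1.71 to 2.55 CPM), so these 2 lines were not separated. *FGF21* had at most 24 counts in a library. *VEGFA* also responds to hypoxia-inducible factors and belongs to the hypoxia list given above.

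**Figure D3:**
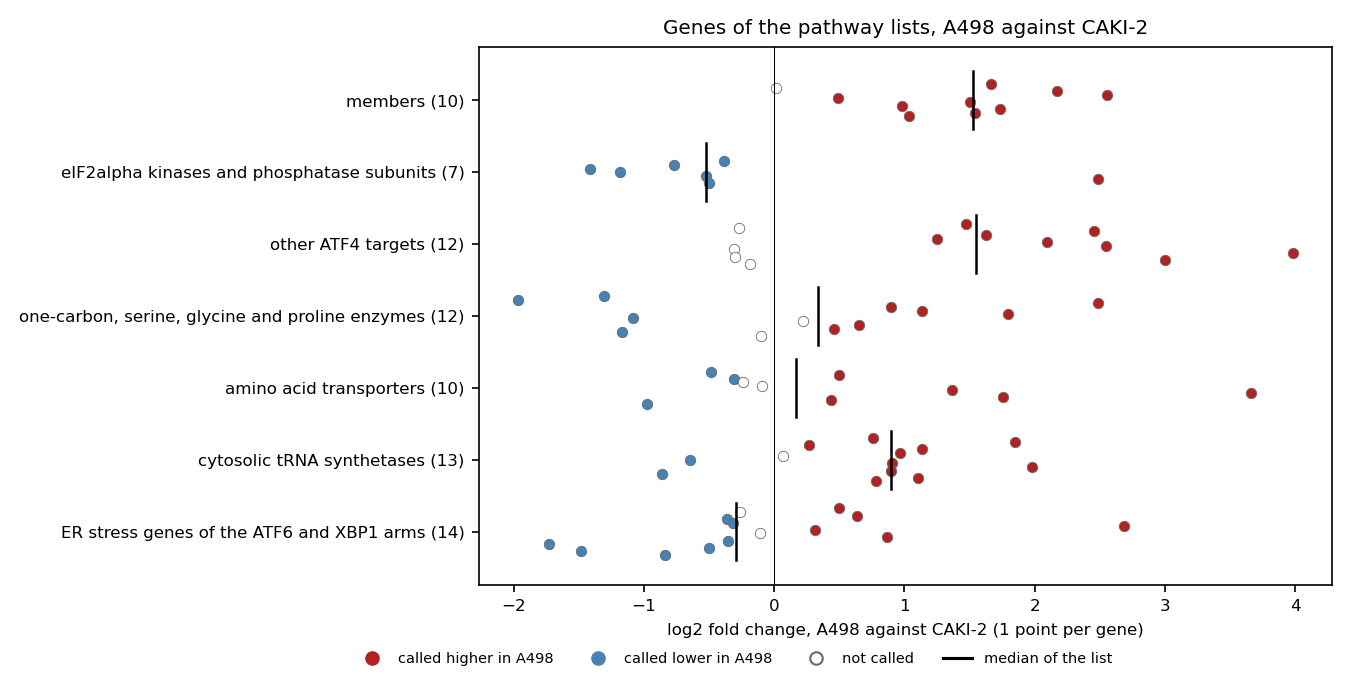
Fitted log2 fold change of A498 against CAKI-2 for the members and the genes of 6 further lists, 1 point per gene, with the number of genes tested in brackets and the median of each list as a bar. Medians were 1.52 for the members and 1.55 for the other ATF4 targets, and lay below 0 for the eIF2alpha kinase and endoplasmic reticulum lists.

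Among the enzymes of one-carbon, serine, glycine and proline metabolism, 6 of 12 (50%) were called higher in A498 than in all 3 other lines and 3 (25%) lower. *ALDH1L2*, the mitochondrial folate dehydrogenase, averaged 130 ± 17.4 CPM in A498 and 23.4 ± 5.33 in CAKI-2 (SD, n = 3), and *CTH*, which makes cysteine from cystathionine, 53.8 ± 0.89 and 24 ± 3.34. *SHMT1*, *MTHFD1* and *ALDH18A1* were the lower ones. Of 10 amino acid transporters, 4 (40%) were higher than in all 3 and 0 lower. They included *SLC3A2*, the heavy chain that pairs with LAT1, and *SLC6A9*, a glycine transporter. In single pairs of lines, transporters called higher and lower in A498 were 5 and 3 against 786-O, 5 and 3 against CAKI-2, and 6 and 3 against 769-P. Those lower than in CAKI-2 included *SLC7A11* (133 ± 11.4 CPM in A498 and 264.5 ± 47.45 in CAKI-2, SD, n = 3). Of 13 cytosolic tRNA synthetases, 4 were higher (30.8%, namely *CARS1*, *GARS1*, *SARS1* and *WARS1*) and *VARS1* was lower (7.69%). In single pairs, synthetases called higher and lower in A498 were 7 and 3 against 786-O, 10 and 2 against CAKI-2, and 4 and 5 against 769-P. *CARS1* averaged 239 ± 3.77 CPM in A498 and 67.9 ± 8.1 in CAKI-2, and *SARS1* 584 ± 21.4 and 149 ± 8.21.

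In the eIF2alpha kinase and endoplasmic reticulum lists, more genes were called lower than higher in A498 than in all 3 other lines. Of 7 eIF2alpha kinases and phosphatase subunits with eIF2alpha itself, *PPP1R15A* (14.3%) was higher in A498 than in all 3 other lines and *EIF2AK2*, *EIF2AK4* and *EIF2S1* (42.9%) were lower. *PPP1R15A*, also called GADD34, recruits the phosphatase that ends the stress response and is itself induced by ATF4, and it averaged 903 ± 39.1 CPM in A498 and 171 ± 21.6 in CAKI-2 (SD, n = 3). *EIF2AK4*, the GCN2 kinase that senses uncharged tRNA, averaged 54.4 ± 4.21 CPM in A498 and 120 ± 2.58 in CAKI-2. Of 14 genes of the ATF6 and XBP1 arms of the unfolded protein response, 3 were higher in A498 than in all 3 (*DNAJB9*, *HERPUD1* and *ERN1*), a share of 21.4% that is near the 18.2% of all genes, and 5 (35.7%) were lower. *MANF*, a secreted chaperone of the endoplasmic reticulum, averaged 16.2 ± 1.07 CPM in A498 and 53.5 ± 3.45 to 74.1 ± 5.63 in the others, while *HSPA5*, the main chaperone there, averaged 1454 ± 110 CPM in A498 and 824 ± 82.8 in CAKI-2. Of the 8 paralogs of members, 1 (*SESN1*) was higher and 1 (*CHAC2*) lower than in all 3, and of 5 pseudogenes tested 0 were higher.

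Whether mutation of *KDM5C* changed the members was asked first over all lines. Averaged over the 4 lines, 0 of the 10 members were called between sgKDM5C and sgCtrl in edgeR (0 by DESeq2, 0 at an unadjusted p under 0.05), and 0.00991% of all genes were. The averaged effect of *PHGDH* could not be fitted in the presence of 786-O at 0 counts, and over the other 3 lines it was -0.14 (log2, adjusted p = 0.823). For the other 9 members the fitted differences of sgKDM5C minus sgCtrl lay between -0.088 and 0.24 on the log2 scale. The highest was that of *ASNS* (a difference of 18.3%, 95% interval -2.92% to 44%, adjusted p = 0.901), followed by *MTHFD2* (12.5%, -4.62% to 32.8%). For *ATF4* the interval was -14.3% to 11.1%, and over the 9 members the lowest bound was -22.2% (*SLC7A5*) and the highest 44% (*ASNS*).

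In single lines, 0 members were called in A498 (0.00496% of all genes), CAKI-2 (0.0%), 769-P (0.00496%) and 786-O (0.00991%) in edgeR, and 0 in each by DESeq2. An unadjusted p under 0.05 was reached by 0 members in A498 and by 1 each in CAKI-2, 769-P and 786-O. In 786-O that member was *TRIB3*, at 152% and 131% of the control with guides 4 and 5 (log2 fold change 0.50, SE 0.208, adjusted p = 1). Beside it, *ASNS* stood at 157% and 111% and *SESN2* at 157% and 104%, so both were apart from the control with guide 4 only, which is the library that differed most from the others of its line. *SLC7A5* went in opposite directions with the 2 guides, at 75.9% and 144%. With sgKDM5C 5 all 9 measured members stood above the control, and with sgKDM5C 4 there were 4. No fitted change of these 9 passed the test in 786-O.

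In CAKI-2 the highest values were those of *ASNS* (170% and 124%, log2 fold change 0.56, adjusted p = 1) and *PHGDH* (159% and 128%, log2 fold change 0.52, unadjusted p = 0.0424, adjusted p = 1). Both guides lay above the single control for these genes, and guide 4 lay further above it than guide 5. In A498, *DDIT3* stood at 79.8% and 73.9% (log2 fold change -0.38, adjusted p = 0.9), *MTHFD2* at 119% and 136% and *TRIB3* at 128% and 115%. *SESN2* was at 99.7% and 100% there. In 769-P, 3 of 10 members stood above the control with guide 4 and 2 with guide 5, and *TRIB3* was at 69.3% and 87.3%.

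A second, looser rule took an unadjusted p below 0.05 with more than a doubling or halving, after a plot of sgKDM5C cells in the study that does not say whether its p was adjusted. *PHGDH* in 769-P was the only member that passed it, at 136 counts in sgCtrl and 79 and 60 with guides 4 and 5. Its log2 fold change was -1.08 (SE 0.278, unadjusted p = 0.00188, adjusted p = 1), and it was lower in 2 of 2 libraries. It was 1 of 70 genes called in 769-P without the count filter (adjusted p = 0.0281). By this looser rule 2.09% of all genes were selected in 769-P and 2.12% in 786-O, with 1.18% in CAKI-2, 1.89% in A498 and 1.28% over the 4 lines, and 0 members were selected in the latter 4.

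Whether the effect of *KDM5C* mutation on the members differed between the lines was tested by an interaction term, which called 0 members and 0.0% of all genes in edgeR (0 members by DESeq2). The 2 members with an unadjusted p under 0.05 were *PHGDH* (unadjusted p = 0.00526, adjusted p = 1), which lay above the control in CAKI-2 with both guides and below it in 769-P with both, and *TRIB3* (unadjusted p = 0.0482), which lay above it in 786-O and A498 and below it in 769-P. With 0 counts of *PHGDH* in the sgCtrl and sgKDM5C libraries of 786-O, its test drew on CAKI-2, A498 and 769-P only. Without the count filter the interaction was called for 106 genes, *PHGDH* among them (adjusted p = 0.0181).

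Mutation of *KDM5D* was compared in the lines that carried those guides. Of the members 0 were called against sgCtrl in 786-O (0.0149% of all genes) and 0 in CAKI-2 (0.0%), by edgeR or DESeq2, and 0 had an unadjusted p under 0.05. By the same looser rule, which is not the one the study used for *KDM5D*, 0 members were selected, against 1.52% and 0.644% of all genes. The 9 measured members stood at 82.5% to 128% of the control in the 2 sgKDM5D libraries of 786-O. The 10 members stood at 78.7% to 120% in those of CAKI-2, with *PHGDH* on either side of the control (109% and 78.7%). Over the 11 comparisons of mutants and guides and the 6 further lists, 1 gene was called. *SLC38A5*, a glutamine transporter, had 115 counts in 786-O sgCtrl and 21 and 8 with sgKDM5D (log2 fold change -3.11, adjusted p = 0.0296), and it had 26 and 31 counts with sgKDM5C against the same control library.

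The 2 kinds of mutant were also compared directly, which does not use the single control. In 786-O, 0 members were called between sgKDM5C and sgKDM5D in edgeR (0.0644% of all genes, and 2.64% by the looser rule with 0 members), 0 by DESeq2, and 1 had an unadjusted p under 0.05 (*TRIB3*, log2 difference of sgKDM5C minus sgKDM5D 0.38). In CAKI-2, 0 were called (0.0% of all genes, and 1.41% by the looser rule with 0 members), 0 by DESeq2, and 2 had an unadjusted p under 0.05. *ASNS* held 175 and 128 CPM with sgKDM5C and 96.3 and 93.4 with sgKDM5D, and *PHGDH* held 101 and 81.4 against 69 and 49.9. Their log2 differences were 0.67 (SE 0.214, unadjusted p = 0.00714) and 0.61 (SE 0.186, unadjusted p = 0.00573), each with an adjusted p of 1. *ASNS* was 1 of 109 genes called without the count filter (adjusted p = 0.00811).

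Finally the guides were set against each other over the 4 lines. No member was called between sgKDM5C guide 4 and guide 5 in edgeR (0 of 10, 0.0% of all genes, 0 by DESeq2), and 2 had an unadjusted p under 0.05. *ASNS* was higher with guide 4 in 4 of 4 lines, at 170% against 124% of the control in CAKI-2, 157% against 111% in 786-O, 111% against 77.2% in 769-P and 109% against 101% in A498 (log2 difference of guide 4 minus guide 5 0.36, unadjusted p = 0.00911, adjusted p = 0.961). *SLC7A5* had a log2 difference of -0.37 (unadjusted p = 0.043, adjusted p = 0.961), lower with guide 4 in 786-O, A498 and 769-P and higher in CAKI-2. For *ASNS* the difference between the guides was thus larger than the averaged difference between mutants and controls given above (0.24).

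Within lines the members did not move as 1 block. After each gene was centred on the mean of its line, the 45 pairs of members had a median Pearson correlation of 0.18 over the 16 libraries, with 32 pairs above 0. These correlations are descriptions over libraries that share lines, controls and depth. The highest were *ATF4* with *CHAC1* (r = 0.722, rho = 0.771), *ATF4* with *SLC7A5* (0.68, 0.609) and *TRIB3* with *SESN2* (0.673, 0.535), and the lowest were *DDIT3* with *MTHFD2* (-0.563, -0.456) and *SESN2* with *MTHFD2* (-0.549, -0.297). *PHGDH*, whose centred values in 786-O rest on 1 count, was compared over the 11 libraries of the other 3 lines, where it went most with *ASNS* (r = 0.667, rho = 0.627). Without *PHGDH* the other 36 pairs had a median of 0.149 over the 16 libraries, with 24 above 0. The mean of the 9 other centred members ran from -0.172 in 786-O sgKDM5D 2, where 0 lay above the line mean, to 0.176 in 786-O sgKDM5C 5, where 7 did. With *PHGDH* included the highest was 0.16, in 769-P sgCtrl.

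The 5 other genes whose centred levels were most like the mean of all 10 members, of 12065 that averaged 100 counts or more, were *CDC42EP1* (r = 0.851, rho = 0.832), *SMAP2* (0.826, 0.8), *NHSL1* (0.796, 0.774), *OLFM2* (0.794, 0.824) and *USP43* (0.782, 0.835), each over 16 libraries. Against the mean of the 9 members without *PHGDH*, *CDC42EP1* stayed first (r = 0.866) and the others ranked 13, 6, 30 and 8 in the order given, so 1 of the 5 stayed among the first 5. Of the pathway genes, 2 of 8 amino acid transporters (*SLC1A4* and *SLC1A5*) and 3 of 13 tRNA synthetases (*MARS1*, *SARS1* and *YARS1*) were among the 100 most alike, and 0 genes of the other lists were. Of these 5, *SLC1A5*, *MARS1* and *YARS1* remained without *PHGDH*. The median correlation was 0.474 for the 11 metabolic enzymes compared, 0.427 for the transporters, 0.367 for the synthetases, 0.189 for 11 other ATF4 targets, 0.0483 for the 14 endoplasmic reticulum genes and -0.167 for the 7 eIF2alpha kinase and phosphatase genes, beside -0.0648 over all genes compared. Without *PHGDH* these medians were 0.483, 0.468, 0.253, 0.242, -0.0129 and -0.145, beside -0.0717.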

How the data were processed

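The submitters' processing notes name Trimmomatic 0.38, STAR 2.5.2b and GRCh37; how reads were counted, with which annotation and whether by strand, is not given in the sources used here. The authors deposited raw counts per gene (57773 genes, 16 libraries of stranded, paired-end RNA-seq). Groups came from the labels. Gene IDs were matched to GENCODE on GRCh37 (55538 matched). The 20175 genes reaching 60 counts in total were fitted with edgeR 4.0.16 in R 4.3.3 (TMM, quasi-likelihood F-test, 1 mean per group over all 16 libraries, 6 residual degrees of freedom, biological coefficient of variation 15.2%), with Benjamini-Hochberg adjustment over all genes and calls at 0.05. CPM used TMM library sizes (factors 0.935 to 1.07), and log2 CPM a prior count of 2. Intervals are 95% t intervals. Depth of 23398449 to 41617439 counts left *CHAC1*, *DDIT3* and *PHGDH* the fewest counts among the members. The floor for *PHGDH* covers counting error only, and the 95% intervals cover the spread between libraries. Alternatives were RLE size factors, DESeq2 1.42.0, other filters, a fit per line, a guide block, and leaving out libraries, lines or guides. A mean of the members without *PHGDH*, and *PHGDH* correlations outside 786-O, were added after seeing the data. The procedure was tested on simulated data. That check set no level of recovery for sgKDM5C against sgCtrl within A498, the only comparison inside a single line that it covered. Members and gene lists were chosen with earlier results of these data known; the named genes were all members, pathway genes called (up to 4 per list and comparison) and the 5 most alike by correlation. Other genes were named after their values were seen.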

Additional observations from a re-analysis of the deposited data

How the results depend on the processing

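Of 208 recomputed counts of called members, 205 stayed within 1.5 times the reported count, or at 0 where 0 was reported. In the 11 mutant and guide comparisons 0 members and at most 0.0644% of all genes were called, so staying at 0 there says little. The 3 counts that moved came from leaving out the count filter and rose from 0 to 1. They were sgKDM5C against sgCtrl in 769-P (*PHGDH*), the difference of the sgKDM5C effect between lines (*PHGDH*), and sgKDM5C against sgKDM5D in CAKI-2 (*ASNS*). Over all genes the calls in these comparisons rose as well, to 70, 106 and 109 from 1, 0 and 0. The cause was not tested. The number of members higher in A498 than in each other line was 7 to 9 when 1 library was left out. Of 924 recomputed fold changes, 867 kept direction and call, 17 gained a call, 12 lost one and 28, all of uncalled values, changed sign. These covered the pairs of lines and the average sgKDM5C effect, without *PHGDH* where 786-O enters. In the other mutant and guide comparisons they covered chosen members only, and sgKDM5D against sgCtrl was left out. The sgKDM5C effect on *SLC7A5* in 786-O, at 75.9% and 144% of the control with guides 4 and 5, was not among them. Sign changes of the average sgKDM5C effect came from leaving out A498 (*ATF4* 0.0048, *DDIT3* 0.047, *SLC7A5* 0.0018), 769-P (*ATF4* 0.0034, *SLC7A5* 0.036) or 786-O (*TRIB3* -0.041). *ATF4* between CAKI-2 and A498 became 0.018 with RLE, 0.018 with DESeq2, 0.058 with filterByExpr and 0.087 without a filter, and *PSAT1* between CAKI-2 and 769-P 0.015 with RLE and 0.015 with DESeq2. Leaving out single libraries or guides gave ranges that crossed 0 for *ATF4* (-0.061 to 0.10) and *PSAT1* (-0.10 to 0.13) in these pairs, *SESN2* between 786-O and CAKI-2 (-0.063 to 0.27), *SLC7A5* between 786-O and A498 (-0.45 to 0.072), and the average sgKDM5C effect on *ATF4* (-0.099 to 0.020), *DDIT3* (-0.19 to 0.040) and *SLC7A5* (-0.25 to 0.085). Without the 786-O sgKDM5C 4 library, which differed most from its line, 8 members stayed called higher in A498 than in each other line.

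The guide 4 minus guide 5 differences of 2 lines correlated between -0.223 (A498 with 769-P) and 0.291 (CAKI-2 with 769-P) over 12075 genes. Guide number was not used as a pairing of libraries in the main fit. With guide number as a replicate block, *ASNS* between 786-O and 769-P was called (log2 difference -0.43, adjusted p = 0.0231), *TRIB3* between the same lines was not (0.37, adjusted p = 0.0644), and 8 members were higher in A498 than in each other line. With 1 control library per line, and genes at 0 counts in a line, effects of mutation could be missed at this depth and replication. In single lines this held for changes near a doubling or halving as well. *PHGDH* in 769-P differed 2.12-fold without a call in the main fit. For *ASNS* in CAKI-2 the 95% interval reached a difference of 119%.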
